A study of Mus musculus with 12 samples.

Results

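The subunits of the respiratory chain and of ATP synthase were examined as 2 sets of genes, encoded by the mitochondrial and by the nuclear genome. Members were the protein-coding genes of the table whose symbols begin with mt-Nd, mt-Co, mt-Cytb or mt-Atp (the mitochondrial set) or follow the names of the Nduf, Sdh, Uqcr, Cox4 to Cox8 and Atp5 subunit genes (the nuclear set). This gave 13 mitochondrial and 76 nuclear members, 89 of the 17340 genes with counts. The nuclear members fall into complex I (36), complex II (4), complex III (8), complex IV (12) and complex V, the ATP synthase (16), and the mitochondrial members into complex I (7), complex III (1), complex IV (3) and complex V (2). All members were counted in enough libraries to be tested, and no expression filter removed any.

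The respiratory chain passes electrons from NADH and succinate through complexes I to IV to oxygen, and complex V uses the resulting proton gradient to make ATP. Complex II is built from nuclear genes alone, whereas the other complexes combine a catalytic core that is partly made inside the organelle with imported nuclear subunits. The mitochondrial genome is transcribed as long precursors that are cut into single messages, while each nuclear subunit has its own promoter, so the supply of both sets has to be matched.

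RNA-seq libraries had been made from KPC cells, a mouse pancreatic cancer line labelled C57BL/6, grown in DMEM with fetal bovine serum. The groups were cells given 1 µM JQ1, 1 µM I-BET151 or 1 µM ITF2357, and control cells, all collected after 48 h, with 3 libraries in each group. JQ1 and I-BET151 block the bromodomains of BET proteins, which read acetylated histones, and ITF2357 (givinostat) inhibits histone deacetylases. The control is labelled both as untreated and as PBS, and the solvent of the compounds is not named in the labels. Separate cultures are not stated for the replicates, and the spread behind the p-values may therefore be technical.

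Library totals were 21 to 29.1 M counts for JQ1, 22.2 to 25.6 M for I-BET151, 23.2 to 31.2 M for ITF2357 and 21.9 to 23.2 M for control. The epithelial markers Krt8, Krt18, Krt19, Epcam and Cdh1 (all 5 analysed) had summed levels of 3100.4 to 3178 CPM (counts per M library counts, scaled between libraries by TMM) in JQ1, 4274 to 4335 CPM in I-BET151, 4560.1 to 4758 CPM in ITF2357 and 2903 to 2991 CPM in control libraries. Of 5 fibroblast markers 3 were analysed, with summed levels of 20.8 to 26.5 CPM in JQ1, 6.75 to 7.72 CPM in I-BET151, 20.2 to 23.1 CPM in ITF2357 and 21.8 to 22.8 CPM in control libraries. With ITF2357 Pdgfra averaged 9.65 CPM against 6.13 in control libraries, while Col1a1 averaged 11.3 against 14.6 and Pdgfrb 0.495 against 1.64. Of 5 macrophage and leukocyte markers 2 were analysed, at 62 to 66.6 CPM in JQ1, 56.6 to 62.6 CPM in I-BET151, 102 to 105 CPM in ITF2357 and 47.7 to 49.4 CPM in control libraries. These 2 moved apart with ITF2357: Cd14 averaged 98.8 CPM against 41.4 in control libraries, and Cd68 4.33 against 7. Of 3 endothelial markers 2 were analysed, at 3.28 to 3.79 CPM in JQ1, 0.844 to 0.971 CPM in I-BET151, 0.951 to 1.45 CPM in ITF2357 and 3.86 to 4.37 CPM in control libraries. Acinar, adipocyte and muscle markers were not analysed here. The part of these shifts in the results was not tested. The noncoding RNA Malat1 took 2.89%, 7.26% and 2.22% of the counts in JQ1, I-BET151 and ITF2357 libraries, against 2.65% in control libraries. Its part in the shares of the sets was not tested. In bulk RNA, a change in the share of cells that express a gene and a change in its RNA per cell cannot be told apart, and all levels are relative to the RNA measured in a library.

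The mitochondrial set took up a larger share of the library with each compound, and the nuclear set with I-BET151 and ITF2357. Mitochondrial members held 2.73% ± 0.0307 of all counts in JQ1, 3.87% ± 0.0757 in I-BET151, 3.01% ± 0.102 in ITF2357 and 2.27% ± 0.0491 in control libraries (SD, n = 3 each). Nuclear members held 0.340% ± 0.00212 in JQ1, 0.366% ± 0.000332 in I-BET151, 0.429% ± 0.00567 in ITF2357 and 0.339% ± 0.00126 in control libraries. Every treated library had a larger mitochondrial share than every control library, while the nuclear shares of JQ1 and control libraries overlapped.

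The ratio of summed mitochondrial to summed nuclear counts within a library needs no scaling between libraries. It was 8.14, 7.88 and 8.09 in JQ1 libraries, 10.8, 10.5 and 10.5 in I-BET151 libraries, 6.78, 7.25 and 7.02 in ITF2357 libraries, and 6.84, 6.54 and 6.69 in control libraries. Both BET inhibitors lay wholly above the control, whereas ITF2357 libraries overlapped with it. On the log2 scale the mean ratio was 0.26 above control in JQ1 libraries, 0.66 above it in I-BET151 and 0.07 above it in ITF2357 libraries. These are summaries of chosen members and carry no test. The 3 comparisons share the control libraries.

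**Figure D1:**
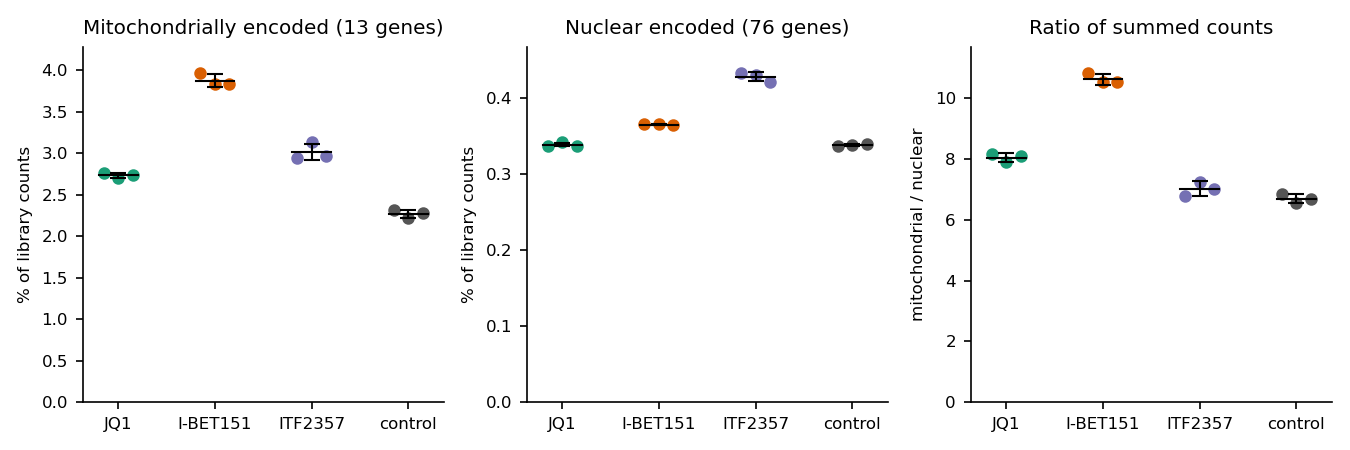
Share of library counts in the 13 mitochondrially encoded genes, share in the 76 nuclear-encoded genes, and ratio of both sums, for the JQ1, I-BET151, ITF2357 and control libraries. Points are libraries, horizontal lines group means and bars 1 SD (n = 3). The ratio is highest in I-BET151 libraries (10.5 to 10.8), and ITF2357 libraries (6.78 to 7.25) overlap with control libraries (6.54 to 6.84).

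Split by complex, ITF2357 did not move the ratio the same way everywhere. In complex I the ratio of mitochondrial to nuclear counts averaged 9.78 ± 0.204 in JQ1, 14.4 ± 0.409 in I-BET151, 10.3 ± 0.417 in ITF2357 and 8.13 ± 0.232 in control libraries (SD, n = 3 each). In complex III it averaged 15.2 ± 0.587, 21 ± 0.179 and 12.5 ± 0.375 in JQ1, I-BET151 and ITF2357 libraries, against 13.5 ± 0.559 in control libraries. In complex IV the means were 19.2 ± 0.370, 21.4 ± 0.508 and 15.0 ± 0.859 in the same order of compounds, against 15.9 ± 0.212 in control libraries. In complex V they were 0.0447 ± 0.00435, 0.0489 ± 0.00153 and 0.0268 ± 0.00623, against 0.0323 ± 0.00284 in control libraries. Its mitochondrial members are mt-Atp6 and mt-Atp8, whose counts may be uncertain, as given below. ITF2357 libraries thus lay wholly above the control in complex I (9.89 to 10.7 against 7.91 to 8.37), and wholly below it in complex III (12.3 to 13 against 13.1 to 14.1). In complexes IV and V the ITF2357 libraries overlapped with the control.

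The mitochondrial members differed widely in level. Per length, in control libraries, the core subunit of cytochrome c oxidase mt-Co1 stood highest at 6007 ± 102 RPKM (counts per kb and M counts), followed by the cytochrome b gene mt-Cytb at 3137 ± 83.5, mt-Nd1 at 2724 ± 58.0, mt-Nd5 at 1663 ± 39.7, mt-Nd2 at 1619 ± 52.0 and mt-Nd4 at 1082 ± 16.3 RPKM. The complex I genes mt-Nd5 and mt-Nd2 did not differ beyond their spread. Lower levels were counted for mt-Nd6 (232 ± 8.18 RPKM), mt-Co2 (71.6 ± 6.33), mt-Co3 (57.0 ± 2.14), mt-Atp8 (48.4 ± 8.23), mt-Atp6 (35.8 ± 2.02), mt-Nd3 (16.4 ± 3.44) and mt-Nd4l (8.56 ± 1.11). The median over the nuclear set was 21.7 RPKM in control libraries, and its highest member, the complex IV subunit gene Cox8a, had 131 RPKM.

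Annotated near-identical copies of part of the mitochondrial genome lie on chromosome 1, where 7 pseudogenes on the minus strand span bases 24611535 to 24616197 (build mm10). Their sequence is shown beside that of their mitochondrial counterparts because reads from either place cannot be told apart where the letters are the same. The stretch at the start of mt-Co2 (chrM:7013-7072, plus strand) and of Gm28661 (chr1:24615506-24615565, minus strand) and the stretch at the start of mt-Atp6 (chrM:7927-7986) and of Gm10925 (chr1:24614592-24614651) hold the same letters. The stretch of mt-Co1 at chrM:6381-6440 and of Gm29216 at chr1:24616138-24616197 is given with differing bases in capitals.
mt-Co2: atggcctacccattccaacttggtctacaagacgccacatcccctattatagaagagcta
Gm28661: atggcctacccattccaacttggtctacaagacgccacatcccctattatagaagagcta
mt-Atp6: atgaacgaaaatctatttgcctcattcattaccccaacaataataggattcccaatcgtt
Gm10925: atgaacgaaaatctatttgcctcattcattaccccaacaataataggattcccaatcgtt
mt-Co1: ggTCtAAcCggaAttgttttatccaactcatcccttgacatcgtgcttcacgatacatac
Gm29216: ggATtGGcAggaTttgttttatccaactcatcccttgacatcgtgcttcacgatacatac
Over all aligned bases, mt-Co2 and Gm28661 were identical over 681, mt-Atp6 and Gm10925 over 678, and mt-Co1 and Gm29216 differed at 6 of 492. Of the 100-base windows of mt-Co2, 99.5% occurred unchanged in another annotated gene, and the shares were 99.5% for mt-Atp6, 99.9% for mt-Co3, 97.6% for mt-Nd3, 98.5% for mt-Nd4l, 60.8% for mt-Nd4, 30.8% for mt-Co1 and 3.2% for mt-Nd2. No window of mt-Nd1, mt-Nd5, mt-Nd6, mt-Cytb or mt-Atp8 did so. Sequence outside annotated genes was not searched. The gene mt-Atp8 (chrM:7766-7969) lies next to mt-Co2 and mt-Atp6, which both have copies on chromosome 1. A copy of mt-Atp8 outside the annotated genes there would have been missed, and its counts may be uncertain too.

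For mt-Co2, mt-Co3, mt-Atp6, mt-Nd3 and mt-Nd4l the copy had counts of a similar size to the member, whereas those of mt-Co1, mt-Nd2 and mt-Nd4 had far fewer. In control libraries mt-Co2 had 1001 to 1221 counts and Gm28661 760 to 866. In the same libraries mt-Co1 had 206595 to 227260 counts and Gm29216 502 to 674, and mt-Nd4 had 33212 to 36385 counts and Gm28439 324 to 445. The 5 members of which at least 97.6% of the windows are shared are also among the 6 of lowest level per length. The part of shared reads in these low levels was not tested; the handling of reads with several positions is not stated in the labels. Counts of the 6 members that share at least 50% of their windows (mt-Co2, mt-Co3, mt-Atp6, mt-Nd3, mt-Nd4 and mt-Nd4l) are therefore uncertain, and statements on single genes rest first on mt-Nd1, mt-Nd2, mt-Nd5, mt-Nd6, mt-Cytb and mt-Co1.

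**Figure D2:**
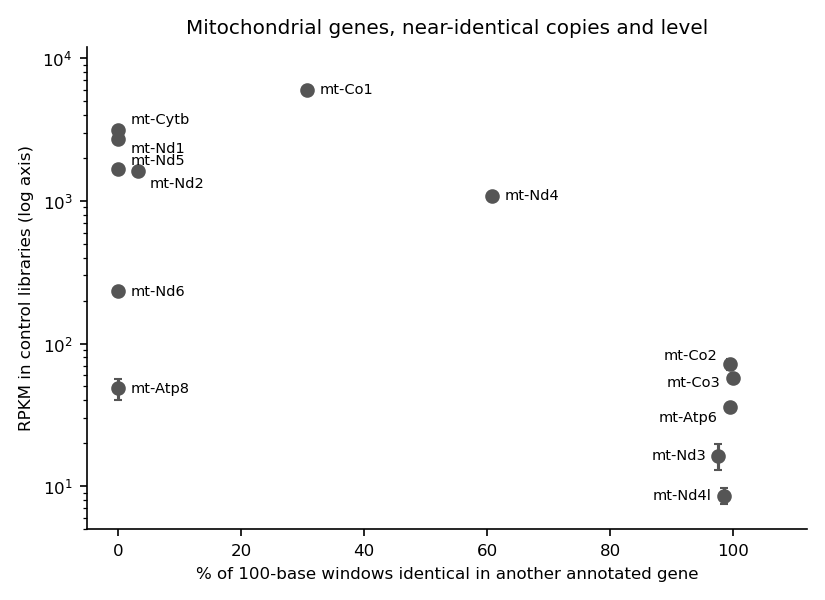
Level of each mitochondrially encoded gene in control libraries (mean RPKM, log axis, bars 1 SD, n = 3) against the percentage of its 100-base windows that occur unchanged in another annotated gene. The 5 genes at 97.6% or more lie at 71.6 RPKM or less, and mt-Co1 at 30.8% has 6007 RPKM. Copies outside annotated genes were not searched.

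With JQ1 most mitochondrial messages rose. Of the 13 members 10 were called higher and 0 lower, where 25.0% of all genes were called, 12.6% higher and 12.4% lower (edgeR's quasi-likelihood test, a p under 0.05 after Benjamini-Hochberg adjustment over 17340 genes). The median log2 fold change of the set was 0.30, and that of all genes was 0.00. The core subunit mt-Co1 had 11724, 11484 and 11435 CPM in JQ1 libraries and 9443, 9127 and 9274 CPM in control libraries. All JQ1 libraries lay above all control libraries. The log2 fold change of mt-Co1 was 0.32 ± 0.02 (SE), 1.24-fold, with an adjusted p of 8.98e-20. The cytochrome b gene mt-Cytb rose 1.13-fold (adjusted p = 1.03e-06), the smallest rise among the called members, and mt-Co2, a copy-sharing subunit of the copper centre of complex IV, rose 1.35-fold (adjusted p = 9.99e-05). Not called were mt-Nd3, mt-Nd4l and the ATP synthase gene mt-Atp8, with log2 fold changes of 0.20 ± 0.13, 0.11 ± 0.19 and 0.62 ± 0.36 (SE).

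With I-BET151 nearly all mitochondrial messages rose, and the set had its highest median of the 3 compounds. Of the 13 members 12 were called higher and 0 lower, against 30.7% and 32.6% of all genes (63.3% in either direction). The median log2 fold change was 0.86, and that of all genes was -0.03. The complex I proton-pump subunit mt-Nd5 had 6754, 6505 and 6585 CPM in I-BET151 libraries and 3058, 2952 and 3091 CPM in control libraries. Its I-BET151 values were well clear of all control values. The log2 fold change of mt-Nd5 was 1.12 ± 0.02 (SE), 2.18-fold (adjusted p = 5.03e-48), and that of mt-Nd4 1.11 ± 0.02, 2.16-fold (adjusted p = 8.81e-47). The genes mt-Nd1, mt-Nd2, mt-Cytb and mt-Co1 rose 1.90-fold, 1.92-fold, 1.89-fold and 1.79-fold. The gene mt-Nd6, the only member annotated on the minus strand, had 176, 186 and 181 CPM in I-BET151 libraries and 125, 117 and 118 CPM in control libraries. It rose 1.5-fold (adjusted p = 1.51e-12), against 2.18-fold for its neighbour mt-Nd5. The call of mt-Nd3 (log2 fold change 0.44 ± 0.13, adjusted p = 0.00322) was lost without control library 2 (adjusted p = 0.0536) and on scaling by library totals (0.28, adjusted p = 0.0612). The gene mt-Atp8 was not called, with 15.8, 18.4 and 16.9 CPM in I-BET151 libraries and 10.7, 7.95 and 11 CPM in control libraries, which do not overlap. Its log2 fold change was 0.78 ± 0.36 (SE, adjusted p = 0.0907), and in a fit of these 2 groups alone its adjusted p was 2.32e-10.

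With ITF2357 the mitochondrial messages that rose most belonged to complex I. Of the 13 members 7 were called higher and 0 lower, against 27.7% and 26.3% of all genes (54.0% in either direction), with a median log2 fold change of 0.21, and -0.01 for all genes. The gene mt-Nd5 had 4936, 5086 and 4872 CPM in ITF2357 libraries, all above the control values given before. It rose 1.64-fold (log2 fold change 0.71 ± 0.02, SE, adjusted p = 1.52e-37), mt-Nd1 1.52-fold (adjusted p = 3.12e-18), mt-Nd4 1.48-fold (adjusted p = 1.31e-31) and mt-Nd2 1.44-fold (adjusted p = 4.45e-11). The rises of mt-Co1 and mt-Cytb were 1.25-fold and 1.16-fold. The gene mt-Nd6 had 123, 135 and 118 CPM in ITF2357 libraries, which overlap with the control, and its log2 fold change of 0.06 ± 0.04 was not called, except without ITF2357 library 3 (0.10, adjusted p = 0.0285). The smallest called change was that of mt-Atp6 (0.20 ± 0.07, adjusted p = 0.0118). Its libraries overlap with the control, and the call was lost without control library 2 (adjusted p = 0.0858) or ITF2357 library 2 (adjusted p = 0.231). The remaining members, mt-Co2, mt-Co3, mt-Nd3, mt-Nd4l and mt-Atp8, were not called, with log2 fold changes from 0.05 to 0.24. Of these, mt-Co2 was called without control library 3 or ITF2357 library 1 and with DESeq2 (adjusted p from 0.00441 to 0.0264), and mt-Co3 without ITF2357 library 1 (adjusted p = 0.0226).

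**Figure D3:**
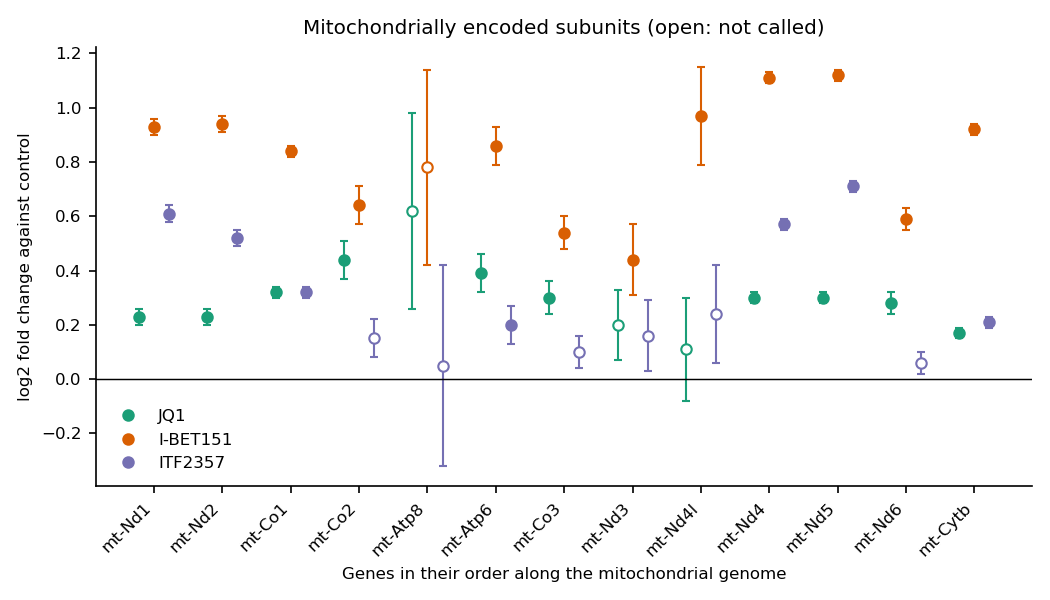
Fitted log2 fold change against control (points, bars 1 SE) of the 13 mitochondrially encoded genes, in their order along the mitochondrial genome, for JQ1, I-BET151 and ITF2357. Filled points were called at an adjusted p under 0.05. I-BET151 points run from 0.44 (mt-Nd3) to 1.12 (mt-Nd5), and the called ITF2357 points reach 0.71 (mt-Nd5).

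Ratios between mitochondrial messages of the same library show how the members shifted against each other, again with no scaling between libraries. The ratio of mt-Nd5 to mt-Cytb counts was 0.927, 0.929 and 0.922 in JQ1, 0.990, 0.957 and 0.972 in I-BET151, 1.21, 1.17 and 1.22 in ITF2357, and 0.828, 0.842 and 0.867 in control libraries. Neither gene shares a window with another annotated gene. Every treated library exceeded every control library, and ITF2357 libraries stood highest. The ratio of mt-Nd1 to mt-Cytb averaged 0.755 ± 0.0210 in JQ1, 0.729 ± 0.0222 in I-BET151, 0.958 ± 0.0201 in ITF2357 and 0.727 ± 0.0111 in control libraries (SD, n = 3 each). For mt-Nd1, ITF2357 libraries (0.939 to 0.979) stood clear of the control (0.716 to 0.738), while JQ1 and I-BET151 libraries overlapped with it.

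Counts of mt-Nd6, annotated on the minus strand, shifted against those of its plus-strand neighbour mt-Nd5 with I-BET151 and ITF2357. The ratio of mt-Nd6 to mt-Nd5 was 0.0407, 0.0375 and 0.0384 in JQ1, 0.0260, 0.0285 and 0.0274 in I-BET151, 0.0249, 0.0266 and 0.0242 in ITF2357, and 0.0409, 0.0397 and 0.0384 in control libraries. The I-BET151 and ITF2357 libraries lay below all control libraries, and JQ1 libraries overlapped with them. With mt-Cytb in place of mt-Nd5, the ratio averaged 0.0360 ± 0.00153 in JQ1, 0.0266 ± 0.000775 in I-BET151, 0.0302 ± 0.000798 in ITF2357 and 0.0335 ± 0.000326 in control libraries (SD, n = 3 each). No treated group overlapped with the control: JQ1 libraries lay above it, and I-BET151 and ITF2357 libraries below it. The ITF2357 libraries lay much closer to the control on this ratio than on that to mt-Nd5. The genes mt-Nd6 and mt-Nd5 overlap by a few bases at their ends, on opposite strands, and the labels do not state whether reads were counted by strand. If they were not, reads from plus-strand precursors over any of the 519 bases of mt-Nd6 would count for mt-Nd6 too. The part of such reads in these ratios was not tested.

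**Figure D4:**
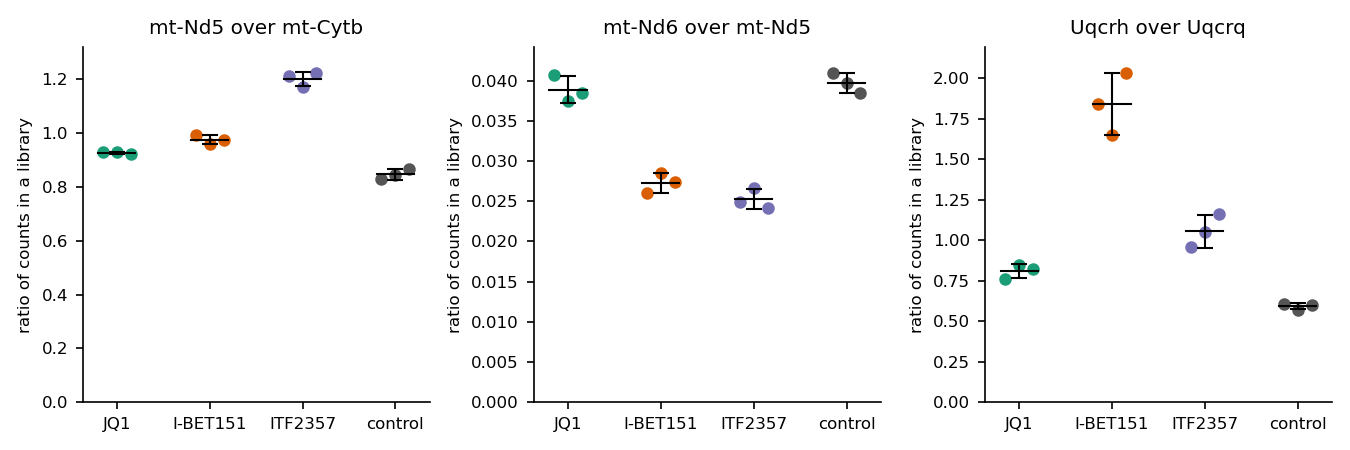
Ratios of counts within a library for mt-Nd5 over mt-Cytb, mt-Nd6 over mt-Nd5 and Uqcrh over Uqcrq, in JQ1, I-BET151, ITF2357 and control libraries (points, with group mean and 1 SD, n = 3). The first ratio is highest in ITF2357 libraries (1.17 to 1.22), the second is 0.0242 to 0.0285 in ITF2357 and I-BET151 libraries against 0.0384 to 0.0409 in control libraries, and the third is highest in I-BET151 libraries (1.65 to 2.03).

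The nuclear set moved in both directions with JQ1 and mainly upward with the other compounds. With JQ1, 14 of the 76 members were called higher and 10 lower, and the median log2 fold change was 0.05. The share called, 31.6%, is near the 25.0% of all genes. Without control library 3, or without JQ1 library 3, 6 members were called lower. With I-BET151, 54 members (71.1%) were called higher and 5 (6.58%) lower (median 0.29), against 30.7% and 32.6% of all genes. Without control library 3 the count called lower was 3. With ITF2357, 63 members (82.9%) were called higher and 3 (3.95%) lower (median 0.38), against 27.7% and 26.3% of all genes. On scaling by library totals alone, in which I-BET151 changes of all genes sit 0.16 lower on the log2 scale, 36 members were called higher and 14 lower with I-BET151, and the share of higher calls among all called genes was 33% in place of 48.4%. The mitochondrial set then had 11 higher and 0 lower. In the authors' deposited table, calls at the same threshold were the same as these for 89 members (JQ1), 88 members (I-BET151) and 87 members (ITF2357).

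**Figure D5:**
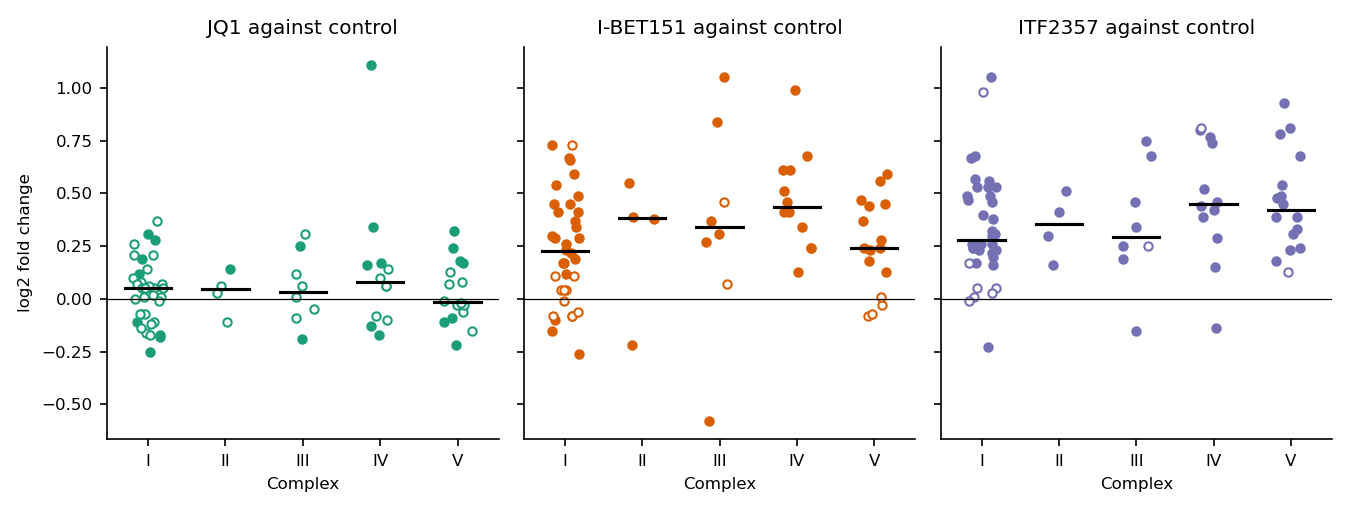
Fitted log2 fold change against control of the 76 nuclear-encoded subunit genes by complex, for JQ1, I-BET151 and ITF2357. Each point is a gene, filled where called at an adjusted p under 0.05, and black lines are medians. Medians lie near 0 with JQ1 (-0.02 to 0.08) and above it in all complexes with I-BET151 (0.23 to 0.43) and ITF2357 (0.28 to 0.45).

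By complex, complex IV with I-BET151 had all 12 of its nuclear members called higher, and complex V with ITF2357 had 15 of 16 called higher and 0 lower. The 12 include Cox7a1, which was close to the detection limit and lost its call on scaling by library totals. Of all genes, 12.6% were called higher and 12.4% lower with JQ1, 30.7% and 32.6% with I-BET151, and 27.7% and 26.3% with ITF2357. Complex I had 22 of 36 members higher and 3 lower with I-BET151, 28 higher and 1 lower with ITF2357, and 4 higher and 4 lower with JQ1. Complex III had 5 of 8 higher and 1 lower with I-BET151 and 6 higher and 1 lower with ITF2357. The most frequent pattern over the compounds, in 33 nuclear members, was no call with JQ1 and higher calls with both I-BET151 and ITF2357. Another 12 were called higher with all 3 compounds, 1 was called lower with all 3, and 5 were called with none. The comparisons share control libraries, so these patterns are not independent. The share of all genes with each pattern was not counted, so whether a pattern is particular to the members cannot be read from these counts.

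Among complex I genes, Ndufa1, an accessory subunit encoded on the X chromosome, had 15.3, 16.0 and 15.6 CPM in JQ1, 21.8, 20.7 and 20.4 CPM in I-BET151, 25.1, 27.7 and 26.0 CPM in ITF2357, and 12.3, 13 and 12.6 CPM in control libraries. The 4 groups do not overlap. It rose 1.24-fold with JQ1 (adjusted p = 0.00184), 1.66-fold with I-BET151 (adjusted p = 1.19e-12) and 2.08-fold with ITF2357 (log2 fold change 1.05 ± 0.07, SE, adjusted p = 3.17e-19). The accessory subunit Ndufc1 rose by 0.28 on the log2 scale with JQ1, and Ndufb2 by 0.66 with I-BET151. The gene Ndufa4, named for complex I and later assigned to complex IV, rose 1.59-fold with I-BET151 and 1.60-fold with ITF2357 and was not called with JQ1 (log2 fold change 0.08 ± 0.07).

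Several complex I genes were called in opposite directions by compound. The accessory subunit Ndufa6 had 57.8, 59.0 and 52.4 CPM in I-BET151, 37.5, 36 and 34.9 CPM in ITF2357, and 43.1, 42.5 and 41.8 CPM in control libraries. I-BET151 libraries lay above and ITF2357 libraries below the control. Ndufa6 rose 1.33-fold with I-BET151 (adjusted p = 2.41e-10), and its log2 fold change with ITF2357 was -0.23 ± 0.05 (adjusted p = 9.96e-05). The genes Ndufa10 and Ndufs6 went the other way, with log2 fold changes of -0.15 and -0.26 with I-BET151 and of 0.16 and 0.24 with ITF2357. The I-BET151 fall of Ndufs6 was not called without control library 3 (adjusted p = 0.105). Ndufa10 also fell with JQ1 (log2 fold change -0.25 ± 0.04, adjusted p = 1.05e-05), as did Ndufv1 (-0.17), a flavin-binding core subunit, and Ndufa12 (-0.18). The JQ1 call of Ndufa12 was lost without control library 3 (adjusted p = 0.0616).

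Complex II, succinate dehydrogenase, also works in the tricarboxylic acid cycle. Its iron-sulphur subunit gene Sdhb had 55.8, 56.3 and 58.3 CPM in JQ1, 53.1, 52.6 and 51.6 CPM in I-BET151, 72.6, 68.1 and 64.8 CPM in ITF2357, and 57.7, 63.7 and 62.3 CPM in control libraries. I-BET151 libraries lay below and ITF2357 libraries above the control. The log2 fold change of Sdhb was -0.22 ± 0.05 with I-BET151 (SE, adjusted p = 3.43e-05), 0.16 ± 0.04 with ITF2357 (adjusted p = 0.00142) and -0.11 ± 0.05 with JQ1 (adjusted p = 0.0779). The JQ1 change was called without control library 1 (-0.15, adjusted p = 0.0246) and in a fit of these groups alone (adjusted p = 0.0408). The flavoprotein gene Sdha and the membrane anchors Sdhc and Sdhd rose with I-BET151 by 0.38, 0.39 and 0.55 and with ITF2357 by 0.30, 0.51 and 0.41 on the log2 scale. With JQ1 only Sdhc of the 4 genes was called (0.14 ± 0.04, adjusted p = 0.00915).

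Complex III held the nuclear members that moved furthest apart with I-BET151. The hinge protein gene Uqcrh had 43.7, 46.7 and 44.8 CPM in JQ1, 80.8, 73.4 and 80.0 CPM in I-BET151, 57.3, 60 and 64.5 CPM in ITF2357, and 37.2, 36.6 and 39.5 CPM in control libraries. It was higher in every treated library than in any control library, and the compounds did not overlap with each other. Uqcrh rose 1.19-fold with JQ1 (adjusted p = 9.89e-05), 2.06-fold with I-BET151 (log2 fold change 1.05 ± 0.05, adjusted p = 3.77e-27) and 1.60-fold with ITF2357 (adjusted p = 1.92e-18). The small subunit gene Uqcr11 rose 1.80-fold with I-BET151 and 1.68-fold with ITF2357 and was not called with JQ1 (log2 fold change 0.12 ± 0.08).

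Against this, the small complex III subunit gene Uqcrq was the only nuclear member called lower with all 3 compounds. It had 57.2, 55.1 and 54.5 CPM in JQ1, 43.9, 44.4 and 39.3 CPM in I-BET151, 59.8, 57.4 and 55.5 CPM in ITF2357, and 61.3, 64.1 and 65.7 CPM in control libraries. All treated libraries lay below all control libraries. The log2 fold changes of Uqcrq were -0.19 ± 0.05 with JQ1 (adjusted p = 8.14e-04), -0.58 ± 0.05 with I-BET151 (adjusted p = 3.02e-16) and -0.15 ± 0.05 with ITF2357 (adjusted p = 0.0057). Within a library, the ratio of Uqcrh to Uqcrq counts averaged 0.810 ± 0.0430 in JQ1, 1.84 ± 0.191 in I-BET151, 1.06 ± 0.103 in ITF2357 and 0.593 ± 0.0189 in control libraries (SD, n = 3 each). Neither gene shared a 100-base window with another annotated gene.

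Promoters are shown for Uqcrh and Uqcr11, the 2 nuclear members with the largest rise under I-BET151 among those with a mean log2 CPM of 2 or more and no overlap of libraries, and for Sdhb, which was called in opposite directions with I-BET151 and ITF2357. They come from the RefSeq table (build GRCm38.p6) and run from 250 bases before to 50 after the gene start. Uqcr11 lies at chr10:80406772-80407071 and Uqcrh at chr4:116075021-116075320, both on the minus strand, and Sdhb at chr4:140961021-140961320 on the plus strand. Capitals mark matches, on either strand, to CGCATGC (a core of the NRF1 site) and CCGGAAG (a core of ETS factor sites such as GABP).
Uqcr11: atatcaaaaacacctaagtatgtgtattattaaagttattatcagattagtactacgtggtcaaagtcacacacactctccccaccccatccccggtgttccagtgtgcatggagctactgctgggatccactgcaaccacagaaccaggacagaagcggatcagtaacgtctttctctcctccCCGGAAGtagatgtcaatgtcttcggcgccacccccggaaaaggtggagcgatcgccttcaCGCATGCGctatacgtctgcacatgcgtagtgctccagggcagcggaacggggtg
Uqcrh: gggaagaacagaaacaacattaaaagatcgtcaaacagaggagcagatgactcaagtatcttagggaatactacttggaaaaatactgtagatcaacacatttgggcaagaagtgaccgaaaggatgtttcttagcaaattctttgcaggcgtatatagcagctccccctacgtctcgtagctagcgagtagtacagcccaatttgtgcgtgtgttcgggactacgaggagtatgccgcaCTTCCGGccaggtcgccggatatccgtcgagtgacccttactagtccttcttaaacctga
Sdhb: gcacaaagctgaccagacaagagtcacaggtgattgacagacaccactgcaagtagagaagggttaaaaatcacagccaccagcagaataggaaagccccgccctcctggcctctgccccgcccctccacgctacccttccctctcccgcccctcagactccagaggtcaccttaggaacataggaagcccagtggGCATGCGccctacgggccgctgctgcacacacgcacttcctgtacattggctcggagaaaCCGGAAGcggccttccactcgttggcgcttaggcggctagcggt
Uqcr11 held 2 overlapping NRF1 core matches, on opposite strands, and 1 ETS core match, Uqcrh 1 ETS core match, and Sdhb 1 of each.

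Over the nuclear set, 64 of the 76 members had a promoter in the table. The NRF1 core occurred in 11 of them (17.2%) and in 7.3% of the promoters of 9930 protein-coding genes tested, and the ETS core in 17 (26.6%) against 20%. Also searched on both strands were ATGGCGG, a YY1 core, found in 10 members (15.6%) against 9.4%, and the E-box CACGTG, found in 5 (7.8%) against 11.6%. Median log2 fold changes of members with and without the NRF1 core were 0.24 and 0.30 with I-BET151, 0.25 and 0.41 with ITF2357, and -0.02 and 0.05 with JQ1. With and without the ETS core they were 0.34 and 0.27 with I-BET151, 0.46 and 0.31 with ITF2357, and 0.06 and 0.03 with JQ1. For the YY1 core they were 0.12 and 0.34 with I-BET151, 0.32 and 0.42 with ITF2357, and 0.06 and 0.05 with JQ1. For the E-box, in 5 members, they were 0.18 and 0.30 with I-BET151, 0.13 and 0.40 with ITF2357, and -0.01 and 0.05 with JQ1. These letters describe the windows and are not evidence of binding.

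In complex IV, the accessory subunit gene Cox7b had 63.6, 66.4 and 67.4 CPM in JQ1, 76.5, 77.8 and 82.9 CPM in I-BET151, 97.3, 91.0 and 83.5 CPM in ITF2357, and 49.5, 53.3 and 52.9 CPM in control libraries. The treated groups lay in this order above the control with no overlap. Cox7b rose 1.27-fold with JQ1 (adjusted p = 9.09e-08), 1.52-fold with I-BET151 (adjusted p = 2.87e-16) and 1.75-fold with ITF2357 (log2 fold change 0.80 ± 0.05, SE, adjusted p = 3.96e-21). Cox6b1, which bridges the enzyme's monomers, rose 1.60-fold with I-BET151 and 1.70-fold with ITF2357.

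The common isoform of the regulatory subunit, Cox4i1, showed opposite calls with the BET inhibitors. It had 80.2, 82.6 and 81.2 CPM in JQ1, 101, 109 and 104 CPM in I-BET151, 99.9, 100.5 and 95.8 CPM in ITF2357, and 87.7, 91.6 and 86.9 CPM in control libraries. JQ1 libraries lay below and the other treated libraries above the control. The log2 fold changes of Cox4i1 were -0.13 ± 0.04 with JQ1 (adjusted p = 0.00731), 0.24 ± 0.04 with I-BET151 (adjusted p = 5.31e-08) and 0.15 ± 0.04 with ITF2357 (adjusted p = 2.56e-04). Cox6a1, the widely expressed form of its subunit, likewise had log2 fold changes of -0.17 (JQ1), 0.34 (I-BET151) and 0.44 (ITF2357). The JQ1 calls were lost without control library 2 (adjusted p = 0.0721 for Cox4i1 and 0.0789 for Cox6a1), and that of Cox6a1 also without JQ1 library 3 (adjusted p = 0.0519).

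Isoforms of a subunit could be compared for Cox7a. The widely expressed isoform Cox7a2 had log2 fold changes of 0.16 (JQ1), 0.61 (I-BET151) and 0.74 (ITF2357). Its JQ1 call was lost without control library 2 or 3 or JQ1 library 1 or 2 (adjusted p from 0.097 to 0.217) and on scaling by library totals (adjusted p = 0.0513). The muscle isoform Cox7a1 was close to the detection limit, with 0.389 to 0.486 CPM in control libraries and at most 1.17 CPM elsewhere. Its log2 fold changes of 1.11 ± 0.38 with JQ1 and 0.99 ± 0.39 with I-BET151 were called, and I-BET151 libraries overlapped with the control. The JQ1 call was lost without control library 1 or 3 or JQ1 library 1 (adjusted p from 0.0595 to 0.137). The I-BET151 call was lost without control library 3 or I-BET151 library 2 or 3 (adjusted p from 0.0724 to 0.124) and on scaling by library totals (adjusted p = 0.0593). Cox7a2l, a relative that takes part in supercomplex assembly, rose with I-BET151 (0.24 ± 0.04, adjusted p = 1.03e-06) and fell with ITF2357 (-0.14 ± 0.04, adjusted p = 0.00232). The ITF2357 call was lost without ITF2357 library 3 (adjusted p = 0.0725). The isoform genes Cox4i2, Ndufa4l2 and Cox6a2 were not analysed here.

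In the ATP synthase, ITF2357 raised 15 of the 16 nuclear members, and Atp5l, named here after its values were seen, was not called (log2 fold change 0.13 ± 0.06). The small membrane subunit gene Atp5mpl had 26.7, 26.4 and 27.2 CPM in JQ1, 33.5, 27.4 and 33.9 CPM in I-BET151, 41.1, 42 and 39.3 CPM in ITF2357, and 21.9, 21.9 and 20.6 CPM in control libraries. Its ITF2357 values were the highest, and no treated library overlapped with the control. Atp5mpl rose 1.90-fold with ITF2357 (log2 fold change 0.93 ± 0.06, SE, adjusted p = 1.87e-19), Atp5k, the e subunit gene, 1.75-fold and Atp5e, the epsilon subunit gene, 1.72-fold. With JQ1, Atp5mpl and Atp5e rose 1.25-fold and 1.18-fold.

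The genes Atp5g1, Atp5g2 and Atp5g3 encode the same mature c subunit of the rotor and were chosen for this comparison after their values were seen, apart from Atp5g2. With I-BET151, Atp5g3 rose by 0.59 on the log2 scale, and Atp5g1 and Atp5g2 were not called (-0.07 and -0.08). With ITF2357 all 3 rose, by 0.48, 0.23 and 0.68 for Atp5g1, Atp5g2 and Atp5g3. With JQ1, Atp5g3 rose by 0.17 and Atp5g2 had a log2 fold change of -0.22 ± 0.08 (adjusted p = 0.027). The Atp5g2 call was lost without control library 1, control library 3 or JQ1 library 3 (adjusted p from 0.099 to 0.187) and with DESeq2 (adjusted p = 0.0601).

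Length was related to the change of nuclear members only weakly. Across the 76 members, which are not independent, Spearman's rho of the log2 fold change with gene length was -0.03 for JQ1, -0.22 for I-BET151 and -0.21 for ITF2357, and across 12665 protein-coding genes it was 0.05, 0.04 and -0.12. Among members under 1000 bases (18) and of 1000 bases or more (58), the median log2 fold changes were 0.39 and 0.38 with ITF2357, and 0.35 and 0.27 with I-BET151. For all protein-coding genes under and over this length they were 0.24 and 0.02 with ITF2357, and 0.05 and -0.01 with I-BET151. Of the nuclear members 27 shared at least 1 window with another annotated gene and 0 shared 50% or more. The complex I and III core genes Ndufs3 and Uqcrc1, chosen after their values were seen, had at most 0.825 and 0.582 CPM in any library and were not called in any comparison.

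Set directly against JQ1 at the same dose and time, I-BET151 gave higher levels of most members. The compounds differ in structure, JQ1 being a thienotriazolodiazepine and I-BET151 an isoxazole-bearing quinoline compound. Of the mitochondrial set, 11 of 13 members were called higher in I-BET151 and 0 lower, against 29.8% and 30.7% of all genes (60.5% in either direction), with a median log2 fold change of 0.53. The largest were those of mt-Nd4l (0.86 ± 0.17), mt-Nd5 (0.82 ± 0.02), mt-Nd4 (0.81 ± 0.02) and mt-Cytb (0.75 ± 0.02). Of these, mt-Nd4l and mt-Nd4 share windows with a copy, and mt-Nd4l had only 55 to 91 counts in JQ1 libraries. The called changes of mt-Co2 (0.20) and mt-Co3 (0.24) were lost on scaling by library totals (0.05 and 0.08), and that of mt-Co2 also without I-BET151 library 1, JQ1 library 1 or JQ1 library 3 (adjusted p from 0.0509 to 0.0527). For mt-Nd3 and mt-Atp8 no difference was called, with 95% intervals of the log2 fold change from -0.02 to 0.50 and from -0.61 to 0.94. The log2 ratio of mitochondrial to nuclear counts was 0.40 higher in I-BET151 than in JQ1 libraries, without overlap.

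Of the nuclear set, 50 members (65.8%) were called higher in I-BET151 than in JQ1 and 2 (2.63%) lower, against 29.8% and 30.7% of all genes. The median log2 fold change was 0.25. The largest differences above 0 were those of Uqcrh (0.79 ± 0.05, adjusted p = 3.89e-22), Uqcr11 (0.73 ± 0.08, adjusted p = 1.3e-12), Ndufa4 (0.59), Ndufv2 (0.55), Cox6b1 (0.54) and Ndufb10 (0.52). Ndufv2 is a core iron-sulphur subunit of complex I and Ndufb10 an accessory one. Uqcrq was lower in I-BET151 (-0.39 ± 0.05, adjusted p = 4.37e-10). The lower call of Sdhb (-0.12 ± 0.05, adjusted p = 0.0285) was lost without JQ1 library 3, I-BET151 library 2 or I-BET151 library 3 (adjusted p from 0.0629 to 0.13) and with DESeq2 (adjusted p = 0.0549), which leaves 1 member called lower. On scaling by library totals, 35 members were called higher and 7 lower, and of all called genes 31.2% were higher in place of 49.3%, with a shift of -0.15 over all genes. Among the 24 members with no call, the 95% interval of the difference ran from -0.10 to 0.09 for Ndufa13, which was chosen after its values were seen.

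Few of the genes that copy, transcribe and process the mitochondrial genome were called higher. Of 20 genes for copying and transcription, 1 was higher and 6 lower with JQ1, 3 higher and 6 lower with I-BET151, and 1 higher and 8 lower with ITF2357 (median log2 fold changes of -0.02, -0.08 and -0.10). Of all genes, 12.6% were higher and 12.4% lower with JQ1, 30.7% and 32.6% with I-BET151, and 27.7% and 26.3% with ITF2357. The shares of this list called lower were 30% (JQ1), 30% (I-BET151) and 40% (ITF2357), the I-BET151 share being near that of all genes. The mitochondrial RNA polymerase gene Polrmt was lower with JQ1 (-0.32 ± 0.09, adjusted p = 0.0038) and not called with the other compounds. The JQ1 call was lost without control library 2 (adjusted p = 0.056), and the I-BET151 change was called on scaling by library totals (adjusted p = 0.00579). Tfam, which packs and activates mitochondrial DNA, fell with I-BET151 (-0.25 ± 0.07, adjusted p = 9.61e-04). It was not called with JQ1 (0.07 ± 0.06) or ITF2357 (0.13 ± 0.06), the last of which was called without control library 3 or ITF2357 library 2 (adjusted p = 0.0286 and 0.0365). Top1mt, a mitochondrial topoisomerase, fell with all 3 compounds (-0.45, -1.15 and -0.67 with JQ1, I-BET151 and ITF2357). Rrm2b, a ribonucleotide reductase subunit that supplies nucleotides to mitochondrial DNA, rose by 0.77 with I-BET151. Of 21 genes for processing and stability of mitochondrial RNA, 0 were higher and 6 lower with JQ1, 1 higher and 15 lower with I-BET151, and 3 higher and 6 lower with ITF2357.

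Among 15 regulators of respiratory genes, 1 was higher and 6 lower with JQ1, 3 higher and 5 lower with I-BET151, and 2 higher and 8 lower with ITF2357. The shares called lower, 40%, 33.3% and 53.3%, stand beside 12.4%, 32.6% and 26.3% of all genes. The coactivator gene Ppargc1a (PGC-1 alpha), a driver of mitochondrial biogenesis in muscle and brown fat, had 10.4, 8.51 and 9.80 CPM in JQ1, 38.1, 37.1 and 39.8 CPM in I-BET151, 16.4, 15.2 and 15.1 CPM in ITF2357, and 9.43, 11.8 and 12.3 CPM in control libraries. I-BET151 libraries stood far above all others, ITF2357 libraries lay above the control, and JQ1 libraries overlapped with it. Ppargc1a rose 3.44-fold with I-BET151 (log2 fold change 1.78 ± 0.08, adjusted p = 5.51e-28) and 1.40-fold with ITF2357 (adjusted p = 2.91e-06), and was not called with JQ1 (-0.21 ± 0.09, adjusted p = 0.0976), except without control library 1 (-0.32, adjusted p = 0.0127). Nrf1 was lower with JQ1 (-0.20), I-BET151 (-0.13) and ITF2357 (-0.32), and the I-BET151 call was lost without control library 1 or 2 or I-BET151 library 1 or 2 (adjusted p from 0.0704 to 0.14) and with DESeq2 (adjusted p = 0.0699). Esrra fell with ITF2357 (-0.42 ± 0.07, adjusted p = 2.07e-07) and was not called with the BET inhibitors, except with I-BET151 without control library 3 (0.17, adjusted p = 0.0448). Gabpa was not called with any compound (-0.06 to 0.02), except with I-BET151 on scaling by library totals (-0.22, adjusted p = 2.06e-06). Ppargc1b was called with none, but its group means of 0.454 to 0.603 CPM were too low for small changes to be detected. Myc, which also drives mitochondrial genes, fell by 0.32, 1.56 and 0.72 on the log2 scale with JQ1, I-BET151 and ITF2357.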

How the data were processed

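RNA was measured in 12 libraries of KPC cells in 4 groups of 3, grouped by the treatment in the labels. The deposited table holds the authors' raw counts per gene; the submitters' processing notes name bcl2fastq, STAR 2.7.2a, featureCounts, Subread 2.0.1, edgeR 3.38.4 and the build mm10, without giving each a role. The annotation release is not stated. The same deposited table gives the authors' log2 fold changes, log2 CPM and log2 RPKM and the authors' p-values and FDR, which were used only to compare calls.

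From the counts, R 4.3.3 and edgeR 4.0.16 (limma 3.58.1) were used with TMM factors, filterByExpr (0 genes removed), robust glmQLFit over all 12 libraries and glmQLFTest, with Benjamini-Hochberg adjustment over 17340 genes and calls at 0.05. CPM and RPKM are TMM-scaled (RPKM also by the deposited gene length), and shares and ratios of sets use raw counts. Fold changes are treated over control, or I-BET151 over JQ1. The code was tested on simulated data. Depth was 21 to 31.2 M counts per library, and the biological coefficient of variation was 3.37%.

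The members, gene lists and tests were chosen with earlier results of these data known. Named were all mitochondrial members, and per comparison up to 6 nuclear members with the largest change in each direction, among those called whose libraries did not overlap and whose average log2 CPM was 2 or more, besides a list of isoforms, complex II and regulators and up to 3 genes per further list. Single values of 1 nuclear member are not reported here. Copies were found as identical 100-base windows among GENCODE M21 transcripts, whose IDs matched 17165 of 17340 genes (99.0%). Alternatives were other scalings and filters, DESeq2 1.42.0, fits of the compared groups alone, a replicate block, other set summaries and leaving out each library.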

Additional observations from a re-analysis of the deposited data

How the results depend on the processing

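Of 2151 values of named genes under the alternatives, 2081 kept their side of the threshold, 51 lost their call and 19 gained one. Among values called in either fit, 0 turned their direction. Changes of sign in values called in neither fit were not counted. On scaling by library totals, nuclear members called lower numbered 14 in I-BET151 against control (5 with TMM factors) and 7 in I-BET151 against JQ1 (2 with TMM factors), and 3305 of all genes were called higher in I-BET151 than in JQ1 (5171 with TMM factors). With DESeq2, 1 nuclear member was lower in I-BET151 than in JQ1. Leaving out a library gave 6 to 10 nuclear members lower with JQ1, 3 to 5 with I-BET151 and 1 to 2 in I-BET151 against JQ1.

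Taken as the mean of log2(CPM + 1) over members, the difference between the sets was 0.53 for I-BET151, -0.07 for ITF2357 (the sign turned) and 0.28 for I-BET151 against JQ1. Without mt-Co1, an alternative chosen after seeing the data, the log2 ratio differed by 0.23 for JQ1, 0.72 for I-BET151, 0.14 for ITF2357 and 0.49 for I-BET151 against JQ1. The cause of these shifts was not tested.

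Libraries of different groups carry the same numbers, without a stated pairing. Deviations of same-numbered libraries correlated from -0.175 to 0.105, and those of differently numbered libraries from -0.155 to 0.202. Of 12 libraries, 1 correlated best with a library of its own number. Deviations from a mean of 3 libraries cannot exclude a shared culture or batch. With the replicate block, 14 nuclear members were higher and 10 lower with JQ1, 54 and 5 with I-BET151, 63 and 3 with ITF2357, and 49 and 2 in I-BET151 against JQ1. The paired differences of the log2 ratio, 0.26, 0.66, 0.07 and 0.40, equal the unpaired ones by construction in this balanced design. The member mt-Nd4l had 50 to 69 counts in control libraries, so small changes of it were not detectable at this depth.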

Other observations

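Calls in other mitochondrial gene groups are given beside those over all genes, of which 12.6% were higher and 12.4% lower with JQ1, 30.7% and 32.6% with I-BET151, and 27.7% and 26.3% with ITF2357. Differences between compounds were not tested for these groups. Of 75 genes of the mitochondrial ribosome, 1 was called higher and 18 lower with JQ1, 16 higher and 33 lower with I-BET151, and 33 higher and 6 lower with ITF2357 (edgeR, adjusted p under 0.05 over all genes). Mrpl54 rose by 0.99 with I-BET151 and by 0.92 with ITF2357 on the log2 scale. Of 44 assembly factors, which build the complexes and are not part of them, 1 was higher and 4 lower with JQ1, 14 higher and 12 lower with I-BET151, and 18 higher and 6 lower with ITF2357. The I-BET151 shares of 31.8% higher and 27.3% lower are near those of all genes. Cox10, needed to make the haem of complex IV, fell by 0.49 with JQ1 and by 0.87 with I-BET151. Sdhaf4, an assembly factor of complex II, rose by 0.80 with ITF2357. Of 9 electron carriers and other respiratory genes outside the naming rule, 2 were higher and 2 lower with JQ1, 4 higher and 2 lower with I-BET151, and 8 higher and 0 lower with ITF2357. This list holds Dmac1 and Ndufaf8, and Ndufaf8 is also counted among the assembly factors. Etfdh, which feeds electrons from fatty acid oxidation into the chain, rose with JQ1 (0.30), I-BET151 (0.86) and ITF2357 (0.96). The cytochrome c gene Cycs fell by 0.22 with JQ1 and rose by 0.62 with ITF2357.

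Genes upstream of the chain were also counted. Of 17 genes of the tricarboxylic acid cycle, 2 were higher and 4 lower with JQ1, 9 higher and 3 lower with I-BET151, and 14 higher and 2 lower with ITF2357. Ogdh, a subunit of the oxoglutarate dehydrogenase complex, rose by 0.64 with I-BET151 and by 0.57 with ITF2357. Of 23 entries for genes of glycolysis and pyruvate routing, 16 were higher and 1 lower with JQ1, 6 higher and 14 lower with I-BET151, and 12 higher and 7 lower with ITF2357. Aldoa has 2 entries. The lower one, with 1, 3 and 5 counts in I-BET151 libraries, is among the 14 called lower. Pdk1, which restrains pyruvate dehydrogenase, rose by 0.53 with JQ1, and the lactate exporter gene Slc16a3 fell by 2.60 with I-BET151. Pdk1 moved the other way with I-BET151 and ITF2357, and Slc16a3 moved the other way with JQ1 only. Pdk1 averaged 58.3 CPM in I-BET151 and 56.3 CPM in ITF2357 libraries against 74.6 CPM in control libraries. Slc16a3 averaged 75.5 CPM in JQ1 and 41 CPM in ITF2357 libraries against 55.5 CPM in control libraries. Of 13 genes of the mitochondrial stress response, 1 was higher and 6 lower with JQ1, 3 higher and 9 lower with I-BET151, and 3 higher and 7 lower with ITF2357. Its factor Atf5 fell by 0.67, 3.16 and 2.97 on the log2 scale with JQ1, I-BET151 and ITF2357.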
